A study of Mus musculus with 12 samples.

Results

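The 40 genes described here carry out the unfolded protein response and the early steps of the secretory pathway. They were chosen by name from textbook roles, out of 24346 gene symbols in the deposited tables, and all 40 were found there. Earlier results of these data were known when they were chosen, so the list is not independent of the data. By role they are 8 stress sensors and transcription factors, 16 folding enzymes and chaperones of the endoplasmic reticulum (ER), 4 genes of ER-associated degradation, and 12 genes that bring new proteins into the ER or cut off their signal peptides.

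Proteins meant for secretion enter the ER through the Sec61 channel, lose their signal peptide and fold with the help of chaperones and disulfide isomerases. When unfolded proteins build up, the sensors encoded by Ern1, Eif2ak3 and Atf6 switch on the unfolded protein response, which lowers translation through phosphorylation of eIF2alpha, splices Xbp1 mRNA and raises transcription of chaperones and degradation genes. Group 2 innate lymphoid cells (ILC2s) secrete type 2 cytokines when the alarmin IL-33 reaches them, so their ER carries a cytokine load.

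Lung ILC2s came from mice of the C57BL/6 strain per the labels and C57BL/6J per the methods, either wild type (WT) or lacking Sema6d (Sema6d−/−, labelled 6DKO), a gene for a transmembrane semaphorin. The mice received PBS or IL-33 through the nose for 3 days, which gives 4 groups of 3 libraries: WT with PBS, WT with IL-33, Sema6d−/− with PBS and Sema6d−/− with IL-33. The labels put the IL-33 dose at 50 ng and the methods at 500 ng per day, so the dose is uncertain. Mice were 7 to 12 weeks old per the methods, and cells were sorted as CD45-positive, lineage-negative, Thy1.2-positive and ST2-positive. Whether each library holds 1 mouse or pooled mice was not given, so the p-values measure the spread between these samples. In such bulk RNA, fewer cells of a type and less RNA per cell cannot be told apart.

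Levels are FPKM, fragments scaled by transcript length and by the mapped fragments of the library, as the authors computed them. The tables hold no read counts, so the absolute depth is unknown. The most common FPKM ratio among genes of at most 3 FPKM put the mapped reads of the PBS libraries at 0.739 to 0.998 of WT IL-33 replicate 3, and those of the IL-33 libraries at 0.968 to 1.392. PBS libraries caught fewer genes: 7696 to 9287 symbols exceeded 1 FPKM, against 9917 to 10081 in the IL-33 libraries. Of 3617 genes with a mean between 5 and 20 FPKM, those listed at 0 numbered 472, 536 and 169 with PBS in WT, 641, 208 and 237 with PBS in Sema6d−/−, and 25 to 50 in the IL-33 libraries. WT PBS replicates 1 and 2 and Sema6d−/− PBS replicate 1 stood apart in this way. Of the 40 members, 0 to 4 were listed at 0 in a library. Scatter followed the same split: the median within-group SD of log2(FPKM + 1) over members was 0.428 and 0.410 in the WT and Sema6d−/− PBS groups, against 0.160 and 0.168 under IL-33. Over all genes tested it was 0.654 and 0.702 with PBS and 0.291 and 0.281 under IL-33, so members scattered less than the background.

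The genotype label was checked against Sema6d itself (chr2:124089969-124667770, + strand, GRCm38). Its level was 27.5, 46.1 and 37.5 FPKM in the WT PBS libraries, and 29.0, 22.9 and 19.8 FPKM in the Sema6d−/− PBS libraries. Under IL-33 it was 19.7, 35.5 and 28.7 FPKM in WT, and 15.4, 13.6 and 13.8 FPKM in Sema6d−/−. The genotypes overlapped under PBS, and each Sema6d−/− library lay below each WT library under IL-33, yet the gene did not pass the limma test in either treatment (adjusted p 0.443 and 1, log2 fold change −0.60 and −0.89). Reads of the gene therefore remained in the knockout libraries, and a gene total does not tell which exons are missing, so directions by genotype rest on the labels.

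The sorted identity was clear, and traces of other cells varied. All 13 of 13 ILC2 markers were above 0 in every library, with a summed level of 5892 to 9369 FPKM and Id2 as the most abundant on average. Plasma cells are known for high levels of secretory genes. The 9 markers of B and plasma cells summed to 3.36, 0.139 and 12.97 FPKM in WT PBS, 12.1, 2.92 and 11.4 FPKM in Sema6d−/− PBS, 29.8, 17.0 and 15.0 FPKM in WT IL-33, and 7.09, 21.4 and 15.7 FPKM in Sema6d−/− IL-33. Cd79b, the most abundant on average, led in 5 of the 6 IL-33 libraries, at 2.76 to 26.8 FPKM there, and was listed at 0 in 4 of the 6 PBS libraries, where Tnfrsf13b or Cd79a led instead. Ms4a1, Pax5 and the plasma cell marker Tnfrsf17 were listed at 0 in all 12 libraries. Of the other plasma cell markers, Jchain was at 0 in each WT IL-33 library and Sdc1 was above 0 in each IL-33 library. Sema6d−/− PBS replicate 2 stood apart: its 5 NK cell markers summed to 756 FPKM with Gzma at 653 FPKM, against 0 to 40.2 FPKM in the other libraries, and its 9 macrophage and monocyte markers summed to 134 FPKM, with Lyz2 at 111.9 FPKM. The same 9 markers summed to 0.195, 0.882 and 17.1 FPKM in WT PBS, to 0.610 and 10.5 FPKM in the other Sema6d−/− PBS libraries, to 1.99, 3.96 and 0.815 FPKM in WT IL-33, and to 10.3, 26.3 and 60.03 FPKM in Sema6d−/− IL-33. Under IL-33 this list therefore separated the genotypes, with Lyz2 the highest in 5 of the 6 libraries.

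Some other marker lists were low or moved with treatment, while the sums of the T cell and epithelial lists overlapped between the treatments in both genotypes. The 5 mast cell and basophil markers summed to 63.2, 88.6 and 73.3 FPKM in WT PBS and to 29.9, 32.0 and 17.8 FPKM in WT IL-33, and to 42.9, 89.3 and 50.0 FPKM in Sema6d−/− PBS and 17.9, 22.8 and 40.1 FPKM in Sema6d−/− IL-33. Cpa3 led that list, and the defining genes Mcpt8 and Mcpt4 were listed at 0 in every library. The 7 epithelial markers summed to 16.4 to 38.1 FPKM in WT PBS, 41.9 to 64.2 FPKM in Sema6d−/− PBS, 9.89 to 16.5 FPKM in WT IL-33, and 19.9, 0.0533 and 98.7 FPKM in Sema6d−/− IL-33. Epcam led in 5 of the 6 PBS libraries, whereas the 98.7 FPKM of Sema6d−/− IL-33 replicate 3 was mostly Sftpc, at 97.2 FPKM. By itself Epcam was lower with IL-33 in both genotypes, with no overlap. It read 16.4 to 38.1 FPKM in WT PBS and 3.74 to 8.71 FPKM in WT IL-33. In Sema6d−/− it read 22.3 to 54.0 FPKM with PBS and 0 to 8.43 FPKM with IL-33. The 7 T cell markers summed to 189.7 to 483 FPKM, mostly Cd3g, with Cd4 listed at 0 in all libraries. Dendritic cell markers summed to 0.252 to 5.79 FPKM in WT PBS, 6.06 to 17.7 FPKM in Sema6d−/− PBS, 8.08 to 19.8 FPKM in WT IL-33 and 16.1 to 17.07 FPKM in Sema6d−/− IL-33, with Xcr1 or Zbtb46 the highest. Clec9a of that list was at 0 in every library and Flt3 in every PBS library. Sema6d−/− PBS replicate 2 also had the highest epithelial (64.2 FPKM, with Scgb1a1 at 22.4 FPKM) and dendritic sums among the PBS libraries, and the highest endothelial and mesenchymal sums of all 12, the latter 32.0 FPKM against 0 to 4.62 FPKM elsewhere. Endothelial markers reached at most 23.1 FPKM, neutrophil markers 11.2 FPKM (Cxcr2 alone) and eosinophil markers 1.99 FPKM, with Epx and Prg2 at 0. With IL-33 in WT, the B and plasma cell list and the dendritic list were higher and the mast cell list lower with no overlap. With IL-33 in Sema6d−/−, the mast cell list was lower and the eosinophil list, at 0 with PBS, read 1.4 to 1.6 FPKM. The part of these other cells in the results on members was not tested.

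As a group the members were abundant in ILC2s. Their median level over the 12 libraries was 92.5 FPKM, against 9.51 FPKM over the 11446 genes tested, and 19 of 40 exceeded 100 FPKM, which 1082 genes tested (9.45%) did. Together they held 0.693 to 0.833% of all FPKM in a library. The chaperone Hspa5 (BiP), which binds unfolded proteins and holds the sensors inactive, was the most abundant member at a mean of 756 FPKM. Ppp1r15a (GADD34), the phosphatase subunit that removes the phosphate from eIF2alpha, led the sensors and transcription factors at 566 FPKM, far above that role's median of 28.6 FPKM. Folding genes had a median of 96.5 FPKM, degradation genes 15.1 FPKM and translocation genes 163 FPKM, the latter led by Srp14, a part of the signal recognition particle, at 342 FPKM. Only 5 members had means under 10 FPKM: the chaperone Hyou1, the sensors Atf6 and Eif2ak3, the ubiquitin ligase Syvn1 and the pseudokinase Trib3. Without their place on the list, 39 of the 40 would still have passed the level filter of 0.5 FPKM; Trib3, at a mean of 0.422 FPKM, was kept because it is listed.

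Members whose values are not given library by library are described by their range over the 12 libraries. Among folding genes, Hsp90b1, the ER form of Hsp90, ran from 167.7 to 300.8 FPKM, and Canx, the lectin chaperone calnexin, from 65.3 to 126.7 FPKM. The disulfide isomerases Pdia4 and Pdia6 ran from 44.6 to 119.97 FPKM and from 115.9 to 247 FPKM, and the co-chaperone Dnajb11 from 53.2 to 119.6 FPKM. Sdf2l1, a partner of Hspa5, spread widely, from 14.97 to 112.6 FPKM, with both ends in PBS libraries. Manf, a secreted ER stress factor, ran from 19.5 to 56.8 FPKM, and Hyou1, which exchanges the nucleotide of Hspa5, from 0 to 15.7 FPKM, its 0 in WT PBS replicate 2. Of the degradation genes, Herpud1 was the steadiest at 76.9 to 109.3 FPKM, and Sel1l, the partner of the ligase Syvn1, ran from 4.67 to 19.6 FPKM. Of the translocation genes, the channel subunits Sec61a1, Sec61b and Sec61g ran from 59.4 to 149.5, from 171.5 to 420.4 and from 144.7 to 338.6 FPKM. The translocon-associated subunits Ssr1, Ssr2, Ssr3 and Ssr4 reached 29.1, 152.7, 70.9 and 323 FPKM at most, Spcs1 335.8 FPKM, and Srpr, the receptor of the signal recognition particle, 113 FPKM. Lowest and highest values fell mostly in PBS libraries, where the scatter was larger.

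**Figure D1:**
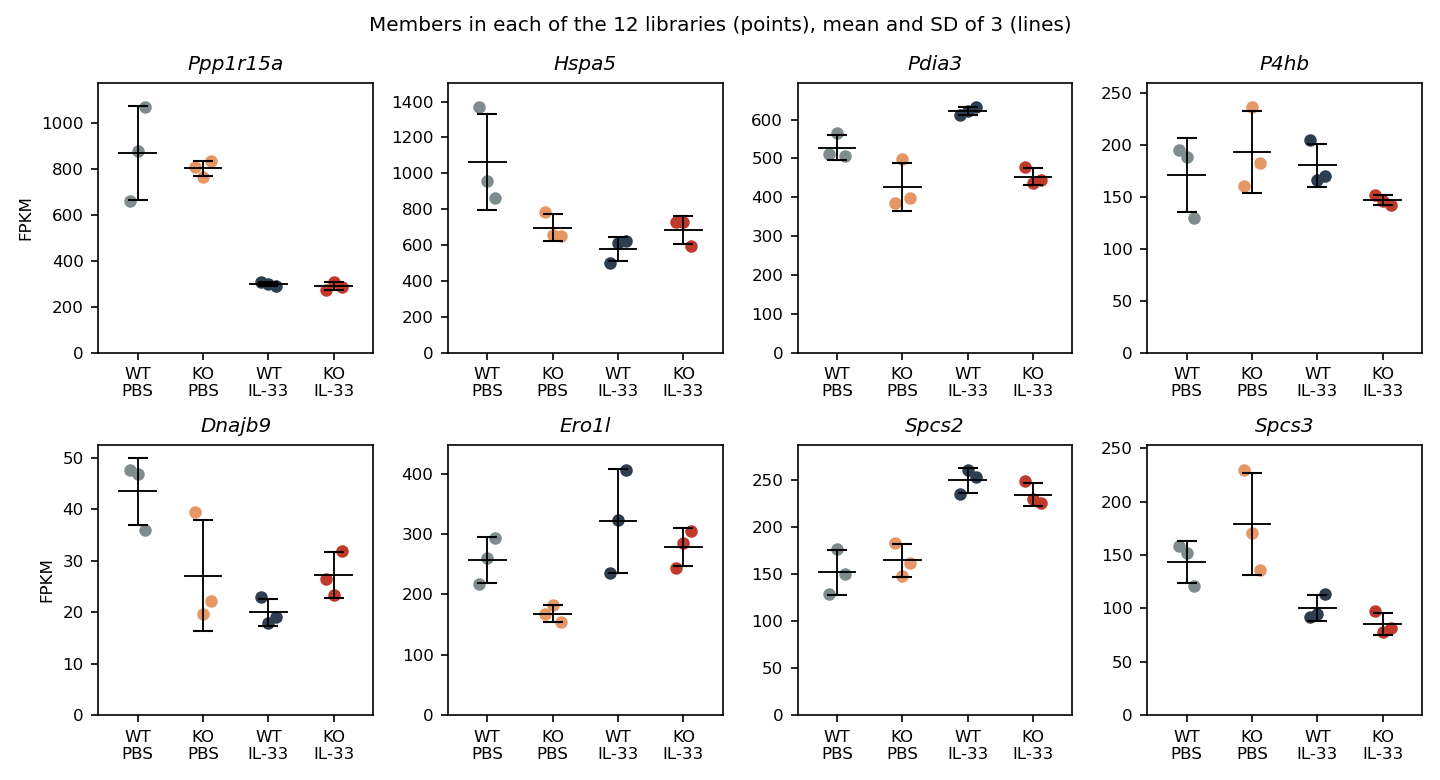
Levels in each library of members named in the text, on an FPKM axis that starts at 0, with points for libraries, lines for the mean and SD of 3, and KO for Sema6d−/−. Ppp1r15a reads 663 to 1072 FPKM in the PBS libraries and 275 to 309 FPKM in the IL-33 libraries.

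The average level of the members overlapped between the groups. The mean log2(FPKM + 1) of the 40 members was 6.08, 5.79 and 6.01 in the WT PBS libraries, 6.14, 6.01 and 5.86 in Sema6d−/− PBS, 6.02, 6.10 and 6.15 in WT IL-33, and 6.12, 5.99 and 6.05 in Sema6d−/− IL-33. All 4 groups overlapped. Over all genes tested the same mean was 3.10 to 3.44 in the PBS libraries and 3.49 to 3.54 in the IL-33 libraries, so there the treatments did not overlap. By role, in the order WT PBS, WT IL-33, Sema6d−/− PBS and Sema6d−/− IL-33, the group means were 4.36, 4.26, 4.44 and 4.28 for sensors and transcription factors and 6.62, 6.64, 6.57 and 6.60 for folding genes. They were 3.77, 4.36, 4.01 and 4.36 for degradation genes and 6.87, 7.15, 6.95 and 7.06 for translocation genes. For degradation and translocation genes each WT IL-33 library lay above each WT PBS library. In Sema6d−/− the degradation genes also separated, narrowly (at most 4.34 with PBS and at least 4.35 with IL-33), and the translocation genes overlapped. Sensors and folding genes overlapped between the treatments in both genotypes.

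What IL-33 did to these genes in WT ILC2s was asked first. Of the 40 members, 1 rose and 2 fell by the limma test. Ppp1r15a, which lets translation resume during stress, and the chaperone Hspa5 were lower after IL-33, and Spcs2, a subunit of the signal peptidase that cuts signal peptides, was higher. Over all genes tested, 311 rose (2.72%) and 188 fell (1.64%), so 1 higher among 40 members (2.5%) is near the background and 2 lower (5%) is a small count. At an unadjusted p under 0.05, limma gave 12 members (30%), against 17.8% of all genes. Members were more abundant and scattered less than all genes tested. Shares set against all genes, here and below, are thus not matched for level or scatter, and show no response of the pathway by themselves.

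Ppp1r15a (chr7:45522916-45526268, − strand, GRCm38) read 663, 879 and 1072 FPKM in WT with PBS and 309, 298 and 292 FPKM in WT with IL-33. All IL-33 libraries lay far below all PBS libraries and close to each other. Mean levels were 871 ± 204 FPKM (SD, n = 3) and 299.8 ± 8.69 FPKM (SD, n = 3), and the log2 fold change was −1.51 (SE 0.154, limma adjusted p 0.000438, lower in 3 of 3 libraries). Its opposite-strand neighbour Tulp2 was at 0 to 0.848 FPKM.

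Hspa5 (chr2:34771970-34777547, + strand) read 1369, 955 and 864 FPKM in WT PBS and 499, 612 and 623 FPKM in WT IL-33. The groups did not overlap, and WT PBS replicate 1 was the highest of all libraries. From 1063 ± 269 to 578 ± 69.0 FPKM (SD, n = 3 each), the gene changed by −0.86 on the log2 scale (SE 0.177, limma adjusted p 0.0203, lower in 3 of 3 libraries). This call was lost when any of the WT IL-33 libraries (replicates 1, 2 and 3) was left out, and was also lost with only the groups compared, where Dnajb9 was called in its place. It was kept in 16 of 22 alternatives, with adjusted p from 0.0112 to 0.114.

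Spcs2 (chr7:99837569-99863462, − strand) read 129, 176 and 149.8 FPKM in WT PBS and 235, 261 and 253 FPKM in WT IL-33. Each IL-33 library exceeded each PBS library. The log2 fold change was 0.73 (SE 0.1502, limma adjusted p 0.0201, higher in 3 of 3 libraries), with means of 151 ± 23.8 and 249.6 ± 13.3 FPKM (SD, n = 3 each). This call was also lost without any of the WT IL-33 replicates 1, 2 or 3 and kept in 16 of 22 alternatives, with adjusted p from 0.0116 to 0.123. Reads from the annotated pseudogene Spcs2-ps cannot be told apart from those of the gene, and its opposite-strand neighbour Xrra1 was at 0 to 2.07 FPKM.

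The count of members called in WT moved with single libraries. Without WT PBS replicate 2 it was 3 higher (Sec61g, Spcs2 and Srp14) and 3 lower (Atf4, Hspa5 and Ppp1r15a), and without WT PBS replicate 3 it was 3 higher (Creld2, Edem1 and Spcs2). Calls over all genes were then 2.83% higher and 1.9% lower, and 3.84% higher. Without WT IL-33 replicate 1, 2 or 3 the count was 0 higher and 1 lower, which was Ppp1r15a, with 1.2 to 1.43% of all genes higher and 0.769 to 0.926% lower. Leaving out Sema6d−/− PBS replicate 1 or 2 added Dnajb9, an ER co-chaperone, to those lower, making 3, while 2.19% and 1.97% of all genes were lower. Without the 3 PBS libraries that listed the most middle genes at 0, an alternative chosen after seeing the data, 4 were higher (Sec61b, Sec61g, Spcs1 and Spcs2) and 1 lower (Ppp1r15a), and over all genes the calls also grew, to 4.22% higher and 2.44% lower.

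Sensors and transcription factors, Ppp1r15a aside, gave no call in WT, and those shown by library here were chosen after their values were seen. Xbp1, whose spliced mRNA makes a transcription factor, read 52.5, 22.0 and 43.8 FPKM in WT PBS and 49.5, 68.7 and 55.0 FPKM in WT IL-33. Atf4, translated when eIF2alpha is phosphorylated, read 241, 119 and 179 FPKM in WT PBS and 94.3, 123 and 91.9 FPKM in WT IL-33, so the highest IL-33 library met the lowest PBS library. Ddit3 (CHOP), a death-linked target of Atf4, was at 84.8, 0 and 19.3 FPKM in WT PBS and 17.8, 18.9 and 22.6 FPKM in WT IL-33. Ern1, the sensor that splices Xbp1, was at 50.0, 16.5 and 29.8 FPKM in WT PBS and 13.2, 17.0 and 26.5 FPKM in WT IL-33, an overlap. Atf6 stayed between 3.05 and 7.46 FPKM over all 12 libraries, Eif2ak3 (PERK) between 0 and 5.01 FPKM and Trib3 between 0 and 2.45 FPKM. Splicing of Xbp1, cleavage of Atf6 protein and phosphorylation of eIF2alpha were not analysed here.

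By groups that do not overlap, 6 members were higher with IL-33 in WT (15% of 40, against 15.8% of all genes) and 6 were lower (15%, against 9.19%). The higher were Pdia3, a disulfide isomerase for glycoproteins, Creld2, Edem1, which marks misfolded glycoproteins for degradation, Sec61b, Spcs2 and Srp14. The lower were Ppp1r15a, Hspa5, the calcium-binding chaperone Calr, Dnajb9, the co-chaperone Dnajc3 and Spcs3. Calr read 209.7, 299.8 and 207 FPKM in WT PBS and 121, 135 and 170.2 FPKM in WT IL-33, and Dnajc3 read 49.3, 52.9 and 37.3 FPKM against 28.5, 32.96 and 34.7 FPKM. Creld2 read 27.2, 45.8 and 66.9 FPKM in WT PBS and 87.4, 75.1 and 88.8 FPKM in WT IL-33, and Edem1 read 7.55, 10.2 and 20.3 FPKM against 20.7, 22.3 and 30.3 FPKM. These were chosen for display after their values were seen, and apart from Ppp1r15a, Hspa5 and Spcs2 none of the 12 passed the limma test.

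The list medians of the log2 fold change were 0.26 over members and 0.16 over all genes tested in WT. By role they were 0.02 for sensors and transcription factors, 0.08 for folding, 0.71 for degradation and 0.37 for translocation, and positive changes numbered 26 of 40 members, with 9 of 12 among translocation genes, against 6681 of 11446 genes tested. Quantile normalization moved the median of all genes by −0.20, to −0.05. The members' median was then 0.15, with 23 of 40 positive, and the medians by role were −0.27, which turns the sign for sensors, and 0.05, 0.55 and 0.32. Relative to the median of all genes the members stood 0.10 higher in the first scale and 0.20 higher in the second, while folding genes turned from −0.08 to 0.09. With quantile normalization the calls over all genes were 249 higher and 234 lower, against 311 and 188. The 95% interval of the change lay inside a 2-fold range either way for 13 of 40 members, with a median width of 1.24 on the log2 scale, and for the others it reached beyond 2-fold.

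**Figure D2:**
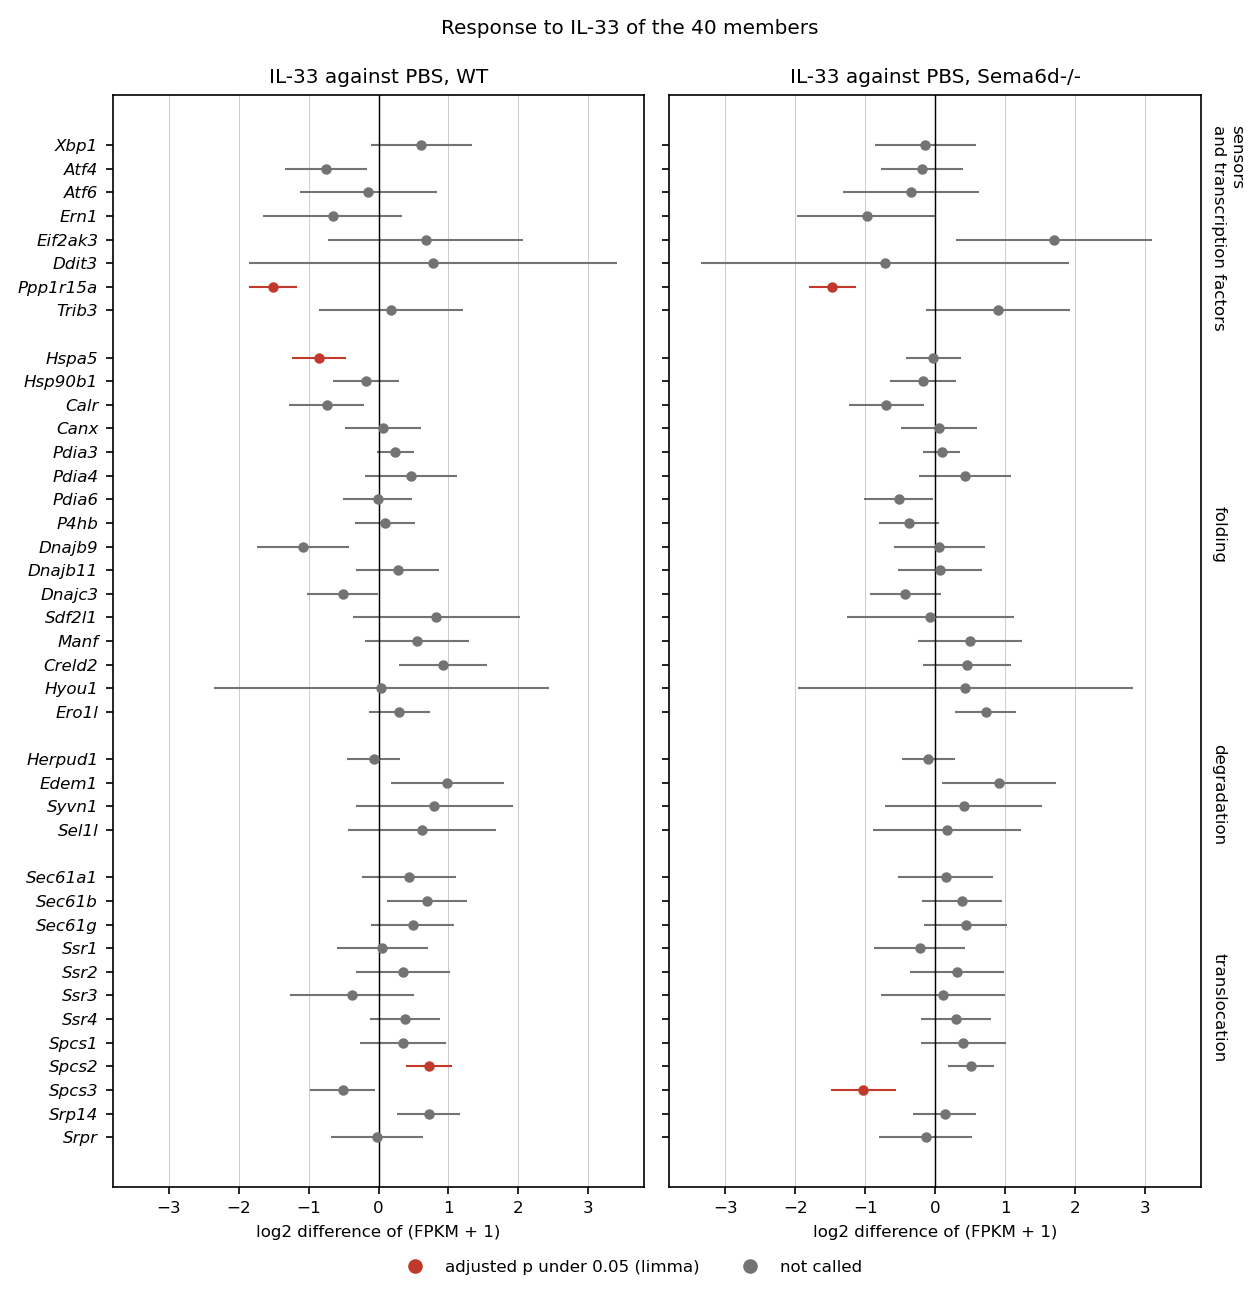
Log2 fold change of each member from PBS to IL-33, in WT and in Sema6d−/−, by role, on log2(FPKM + 1), with 95% intervals and genes called by limma in red. Ppp1r15a lies at −1.51 and −1.47, and Spcs3 at −0.51 and −1.03.

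In Sema6d−/− ILC2s the same question gave 0 members higher and 2 lower. Ppp1r15a fell again, and Spcs3, another subunit of the signal peptidase, fell. Of all genes tested 216 rose (1.89%) and 134 fell (1.17%), and 2 of 40 members is 5%. At an unadjusted p under 0.05, limma gave 8 members (20%), against 15.4% of all genes. Without Sema6d−/− PBS replicate 2, the library with the most marker RNA of NK cells and macrophages, the counts were again 0 and 2. Calls over all genes grew there, to 2.88% higher and 1.56% lower. Each treatment comparison has its own PBS libraries, which the genotype comparisons share.

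Ppp1r15a read 811, 767 and 834 FPKM in the Sema6d−/− PBS libraries and 275, 308 and 285 FPKM in the Sema6d−/− IL-33 libraries. The groups were far apart and the IL-33 values close together. The means were 804 ± 34.2 and 289 ± 16.9 FPKM (SD, n = 3 each), and the log2 fold change was −1.47 (SE 0.154, limma adjusted p 0.000778, lower in 3 of 3 libraries). In both genotypes this call held in 22 of 22 alternatives.

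Spcs3 (chr8:54520433-54529998, − strand) read 230.0, 170.3 and 136 FPKM in Sema6d−/− PBS and 97.1, 77.5 and 81.5 FPKM in Sema6d−/− IL-33. The groups did not overlap, and Sema6d−/− PBS replicate 1 was the highest of all 12 libraries. Its log2 fold change was −1.03 (SE 0.211, limma adjusted p 0.0254, lower in 3 of 3 libraries), from 179 ± 47.6 to 85.3 ± 10.3 FPKM (SD, n = 3 each). In WT it read 158, 152 and 121 FPKM with PBS and 91.9, 94.9 and 114 FPKM with IL-33, which gave −0.51 and did not pass the test (limma adjusted p 0.228). The interaction, the difference between the genotypes' responses, was −0.52 (95% interval −1.18 to 0.14, limma adjusted p 0.886), so a difference between genotypes was not shown. The call in Sema6d−/− was lost without its PBS replicate 1 and without its IL-33 replicate 1, 2 or 3, each leaving 1 member lower. Of all genes, 1.28% were then lower without that PBS replicate, and 0.524 to 0.559% without an IL-33 replicate. The Spcs3 call was kept in 15 of 22 alternatives, with limma adjusted p from 0.0152 to 0.104. The opposite-strand neighbour of Spcs3, Asb5, was at 0 to 1.02 FPKM.

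Hspa5 did not pass the test in Sema6d−/−. It read 785, 655 and 652 FPKM with PBS and 731, 729.8 and 595 FPKM with IL-33, and these overlap. The change was −0.03 (95% interval −0.41 to 0.36), and the interaction was 0.83 (0.28 to 1.38, limma adjusted p 0.681), which was not called. The sign of the change in Sema6d−/− turned under quantile normalization (0.05), and without Sema6d−/− PBS replicate 1 (0.06) or Sema6d−/− IL-33 replicate 3 (0.07). Spcs2 read 183, 148 and 162 FPKM with PBS and 248, 229 and 225 FPKM with IL-33, with no overlap, a log2 fold change of 0.51 (SE 0.1502, limma adjusted p 0.110, higher in 3 of 3 libraries) and an interaction of −0.22 (−0.68 to 0.25, limma adjusted p 0.893). Without the 3 PBS libraries that listed the most middle genes at 0, 3 members were higher in Sema6d−/− (Edem1, Spcs2 and Ssr2), and 3 were lower (Pdia6, Ppp1r15a and Spcs3). Calls over all genes grew there too, to 5.28% higher and 3.18% lower.

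By groups that do not overlap, 6 members were higher in Sema6d−/− (15%, against 13.9% of all genes) and 6 lower (15%, against 8.71%). The higher were Eif2ak3, Creld2, the oxidase Ero1l that re-arms disulfide isomerases, Edem1, Sec61g and Spcs2, and the lower were Ern1, Ppp1r15a, Calr, the disulfide isomerase P4hb, Dnajc3 and Spcs3. In both genotypes 3 members were separately higher, Creld2, Edem1 and Spcs2 (7.5%, against 5.34% of all genes), and 4 were lower, Ppp1r15a, Calr, Dnajc3 and Spcs3 (10%, against 2.97%). Calr read 193, 258 and 153 FPKM in Sema6d−/− PBS and 143, 95.4 and 129.8 FPKM with IL-33, and reads of its annotated copy Calr-ps cannot be told apart. Creld2 read 64.8, 59.04 and 66.3 FPKM and then 106, 76.6 and 81.5 FPKM, and Edem1 14.95, 12.7 and 9.97 FPKM and then 22.4, 22.5 and 28.4 FPKM. Neither passed the limma test, nor did Calr. The median log2 fold change over members was 0.08, against 0.14 over all genes, and by role −0.26 for sensors, 0.06 for folding, 0.29 for degradation and 0.23 for translocation. Quantile normalization moved the median of all genes by −0.16 here, to −0.02, and gave members 0.08 and roles −0.34, 0.07, 0.13 and 0.25. Relative to the median of all genes, members stood at −0.05 before and 0.10 after it and folding genes at −0.08 and 0.09, so these relative signs turned. Over all genes it called 138 higher and 138 lower, against 216 and 134. The 95% interval lay inside a 2-fold range for 20 of 40 members.

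Genotype was asked next, first in mice given PBS. No member passed the limma test between Sema6d−/− and WT (0 of 40), while 70 genes of all tested did (0.612%). At an unadjusted p under 0.05 there were 7 members (17.5%), against 1492 of all genes (13%). The test and the intervals below used a spread shared with the tighter IL-33 libraries. With only the PBS groups compared, 525 genes reached that limma threshold, and 0 genes were called higher and 1 lower. Array weights also gave 0 higher and 1 lower, so the 70 calls depend on the shared spread. Markers of other cells moved with this comparison: epithelial markers summed to 41.9 to 64.2 FPKM in Sema6d−/− PBS and 16.4 to 38.1 FPKM in WT PBS, and dendritic cell markers to 6.06 to 17.7 FPKM and 0.252 to 5.79 FPKM. The dendritic markers Clec9a and Flt3 were at 0 in all of these libraries. Epcam, the only epithelial marker above 0 in WT PBS, overlapped by itself, at 22.3 to 54.0 FPKM in Sema6d−/− PBS. The epithelial list separated through other markers in Sema6d−/− PBS replicate 2, where Epcam was 22.3 FPKM and Scgb1a1 22.4 FPKM. The part of these other cells in the comparison was not tested. Groups did not overlap for 1 member that was higher in Sema6d−/− (2.5%, against 4.40% of all genes), the degradation gene Herpud1, and for 3 that were lower (7.5%, against 4.18%), Hspa5, Pdia3 and Ero1l, of which Herpud1 and Pdia3 are named after their values were seen. Hspa5 at 785, 655 and 652 FPKM in Sema6d−/− lay below 1369, 955 and 864 FPKM in WT, a log2 difference of −0.58 (95% interval −0.97 to −0.20, limma adjusted p 0.228, lower in 3 of 3 libraries). Ero1l (named Ero1a in the annotation, chr14:45283087-45318771, − strand) read 167, 183 and 154 FPKM in Sema6d−/− and 218, 259.8 and 293 FPKM in WT. All 3 were lower, by −0.60 (−1.04 to −0.16, limma adjusted p 0.270). These 2 had the smallest p-values. The median difference over members was 0.07, against 0.00 over all genes, and intervals lay inside a 2-fold range for 22 of 40. This contrast gave 0 members in every alternative run.

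In mice given IL-33, 0 members passed the limma test between the genotypes (1 at an unadjusted p under 0.05, or 2.5%, against 1.96% of all genes), and 1 gene of all tested did (0.00874%). The test and its intervals used a spread shared with the noisier PBS libraries. With only the IL-33 groups compared, 1066 genes had a limma unadjusted p under 0.05, against 224 with all 4 groups, and 0 were called. Array weights called 32 genes higher and 29 lower. A lack of calls therefore does not show that the genotypes were alike. The macrophage and monocyte markers, higher in each Sema6d−/− IL-33 library (10.3 to 60.03 FPKM) than in any WT IL-33 library (0.815 to 3.96 FPKM), moved with this comparison, and their part in it was not tested. Pdia3 (chr2:121413775-121438687, + strand) came nearest. It read 478, 436 and 445 FPKM in Sema6d−/− and 611, 623 and 633 FPKM in WT, with no overlap. The log2 difference was −0.46 (95% interval −0.72 to −0.20, limma adjusted p 0.914, lower in 3 of 3 libraries), and it passed only with array weights (adjusted p 0.0173, over alternatives from 0.0173 to 1). P4hb (chr11:120560298-120573253, − strand) read 152, 146 and 142 FPKM in Sema6d−/− and 205, 167 and 170.1 FPKM in WT, a difference of −0.29 (−0.72 to 0.14, limma adjusted p 1, lower in 3 of 3 libraries). Groups did not overlap for 1 member that was higher (2.5%, against 6.86% of all genes), Dnajb9, and for 6 that were lower (15%, against 7.32%): Pdia3, P4hb, Sdf2l1, Sec61b, Sec61g and Spcs1, chosen for naming after their values were seen. Dnajb9 read 26.4, 23.3 and 32.0 FPKM in Sema6d−/− and 22.9, 17.97 and 19.03 FPKM in WT. Median differences were −0.04 over members and 0.01 over all genes, and intervals lay inside a 2-fold range for 30 of 40.

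The interaction asks whether the response to IL-33 differed by genotype, and 0 members passed by limma, against 3 genes of all tested (0.0262%). At an unadjusted p under 0.05 there were 2 members (5%), Hspa5 and the co-chaperone Dnajb9, a share near the 5.69% of all genes. Dnajb9 (chr12:44205559-44210326, − strand) read 47.7, 46.8 and 36.0 FPKM in WT PBS and 22.9, 17.97 and 19.03 FPKM in WT IL-33, and 39.5, 19.6 and 22.1 FPKM in Sema6d−/− PBS and 26.4, 23.3 and 32.0 FPKM in Sema6d−/− IL-33. In WT the groups did not overlap (log2 fold change −1.08, limma adjusted p 0.0704, lower in 3 of 3 libraries), and in Sema6d−/− they did. The interaction was 1.14 (95% interval 0.22 to 2.07, limma adjusted p 0.835). The WT call was gained without Sema6d−/− PBS replicate 1 or 2 or with only the groups compared (adjusted p from 0.0211 to 0.206 over all alternatives). Median interactions were −0.07 over members and −0.02 over all genes, with 13 positive and 27 negative members, against 5584 positive and 5846 negative genes of all tested. With quantile normalization the members' median was −0.01, with 18 positive and 22 negative. Intervals lay inside a 2-fold range for 13 of 40.

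Other genes of the pathway, 136 in 7 lists, give the surroundings. In WT, 4 rose and 5 fell with IL-33 (19 at an unadjusted p under 0.05), in Sema6d−/− 3 rose and 3 fell (18), between genotypes under PBS 0 were higher and 1 lower (13), under IL-33 0 were called (1), and for the interaction 0 (7), all by limma. The shares called, 2.94% higher and 3.68% lower in WT and 2.21% each in Sema6d−/−, compare with 2.72% and 1.64% and with 1.89% and 1.17% of all genes. At the unadjusted threshold the shares were 14% in WT and 13.2% in Sema6d−/−, below the 17.8% and 15.4% of all genes. Between genotypes they were 9.56% under PBS and 0.735% under IL-33, and 5.15% for the interaction, against 13%, 1.96% and 5.69% of all genes. By list, the treatment shares in WT and Sema6d−/− were 58.3% and 25% for oligosaccharyltransferase genes (described below). For ATF4 and CHOP targets they were 33.3% and 38.9%. The remaining lists had 0 to 11.8% in WT and 5.88 to 8.82% in Sema6d−/−. Of 18 targets of ATF4 and CHOP, 1 rose and 2 fell in WT. Atf3, a stress transcription factor, read 1759, 1205 and 990.1 FPKM in WT PBS and 177, 228 and 269 FPKM in WT IL-33, and in Sema6d−/− 1096, 786 and 746 FPKM and 253, 338 and 432 FPKM. Both genotypes separated completely, with log2 fold changes of −2.53 (limma adjusted p 0.00046) and −1.37 (0.018), lower in 3 of 3 libraries each. The Sema6d−/− call on Atf3 was kept in 16 of 22 alternatives (limma adjusted p from 0.00776 to 0.0808). Its losses included those without Sema6d−/− PBS replicate 1 or Sema6d−/− IL-33 replicate 1 or 2. Cebpb, a transcription factor that pairs with CHOP, read 476, 311 and 343 FPKM in WT PBS and 93.8, 86.2 and 63.3 FPKM in WT IL-33, and its fold changes were −2.20 (limma adjusted p 0.000906) in WT and −1.66 (0.00617) in Sema6d−/−, lower in 3 of 3 libraries in both.

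Mthfd2, a mitochondrial folate enzyme induced by ATF4, went the other way. It read 2.84, 0 and 3.40 FPKM in WT PBS and 21.5, 18.9 and 31.0 FPKM in WT IL-33, and 0.234, 1.07 and 6.57 FPKM and 34.6, 19.5 and 29.9 FPKM in Sema6d−/−. All IL-33 libraries exceeded all PBS libraries, and the changes were 3.24 (limma adjusted p 0.0290) and 3.39 (0.0310), higher in 3 of 3 libraries each. Both calls were kept in 12 of 22 alternatives (adjusted p from 0.0127 to 0.128 in WT and from 0.0122 to 0.137 in Sema6d−/−). Leaving out any IL-33 library ended both, WT PBS replicate 2 ended the WT call, and Sema6d−/− PBS replicate 1 or 2 ended the Sema6d−/− call. In Sema6d−/−, Asns, which makes asparagine, and the death gene Bbc3 were also called higher. Asns was listed at 0 in every Sema6d−/− PBS library and read 16.2, 16.1 and 12.98 FPKM with IL-33 (limma adjusted p 0.0187, higher in 3 of 3 libraries), while WT had 0, 0 and 7.94 FPKM and then 12.98, 18.5 and 6.82 FPKM. Bbc3 was listed at 0 in all 3 Sema6d−/− PBS libraries, read 4.86, 11.7 and 6.24 FPKM in WT PBS, and, with IL-33, 2.78, 1.19 and 1.80 FPKM in WT and 2.29, 3.43 and 3.27 FPKM in Sema6d−/−. In WT each IL-33 library was thus below each PBS library, without a call (limma adjusted p 0.078, lower in 3 of 3 libraries). Bbc3 was also the gene called lower in Sema6d−/− than in WT under PBS (limma adjusted p 0.0159, lower in 3 of 3 libraries, kept in 19 of 22 alternatives with adjusted p from 0.00407 to 0.437). Such listings at 0 give no fold. Neither gene passed the interaction test. The Asns call was kept in 19 of 22 alternatives and lost without Sema6d−/− IL-33 replicate 1, 2 or 3 (limma adjusted p from 0.0016 to 0.0751). The IL-33 call on Bbc3 (limma adjusted p 0.0327, higher in 3 of 3 libraries) was kept in 11 of 22 (from 0.00387 to 0.166). Among its losses were those without Sema6d−/− IL-33 replicate 1, 2 or 3, Sema6d−/− PBS replicate 1 or 3, or WT IL-33 replicate 2 or 3.

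Among 12 oligosaccharyltransferase genes, which attach glycans as proteins enter the ER, Ostc rose and Stt3b and Tusc3 fell in WT. Tusc3 read 258, 162 and 134 FPKM in WT PBS and 86.2, 59.3 and 96.2 FPKM in WT IL-33, and fell by 1.16 on the log2 scale in WT (limma adjusted p 0.0399) and by 1.16 in Sema6d−/− (0.0499), in 3 of 3 libraries each. Stt3b changed by −1.002 (0.0363) and Ostc by 0.74 (0.0234), each in 3 of 3 libraries of WT. Of 34 genes of transport from ER to Golgi, the COPII coat gene Sec13 rose, from 79.3, 78.5 and 96.1 FPKM to 166, 144 and 153 FPKM (0.86, limma adjusted p 0.0150), and the small GTPase gene Arf4 fell by 0.58 (0.0483), both in 3 of 3 libraries of WT. Of 26 other folding genes, Ppib, a prolyl isomerase, rose by 0.80 (0.0269), from 158, 157 and 187 FPKM to 322, 267 and 286 FPKM, and 0 of 26 were called in Sema6d−/−. No gene was called in either genotype among 14 other regulators, 17 other degradation genes and 15 other targeting genes. These WT calls held in 8 (Tusc3), 11 (Stt3b), 14 (Ppib), 15 (Ostc), 18 (Sec13) and 10 (Arf4) of 22 alternatives. WT IL-33 replicates 1, 2 and 3 each ended all of them when left out, except replicate 2 for Sec13, and WT PBS replicate 1 ended all but Sec13. WT PBS replicate 2 ended Ppib and Tusc3, WT PBS replicate 3 ended Arf4, and any of the Sema6d−/− IL-33 replicates 1, 2 and 3 ended Tusc3, Stt3b and Arf4. The Tusc3 call in Sema6d−/− held in 6 of 22, and was lost without WT PBS replicate 2, any Sema6d−/− PBS replicate or any IL-33 library. Genes called in WT alone did not pass the interaction test, so a difference between genotypes was not shown.

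A minority of the members' promoters held an exact match to the ER stress element within the stretch searched. The genes were chosen by role and not by sequence, but this element is known from the response that defines those roles, so the choice is not independent of it. The element, the classic site of the ATF6 and XBP1 factors with NF-Y, is CCAAT and, 9 bases on, CCACG. It was sought on both strands of RefSeq promoters (GRCm38.p6, 250 bases before to 50 after the start), where 34 of the 40 members had an entry, Ero1l under its name Ero1a. Atf6, Manf, Hyou1, Sec61a1, Ssr2 and Spcs3 are named only. The element was found in 8 of 34 members (23.5%), against 39 of 32851 promoters (0.119%), which belong to 37 genes. A shorter relative, ATTGG and, 1 base on, CCACG, was found in Dnajb11 and Herpud1 (5.88%), against 12 promoters (0.0365%). The sequence TGACGTGG, the XBP1 element UPRE, was in 0 members, against 0.676% of promoters, and TGATGCAA, the ATF4 element CARE, was in 1, Herpud1 (2.94%), against 0.895%. A match is a description of letters, not a shown binding site.

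The sites are shown so that Hspa5, which carries one and was called in WT, can be set beside carriers that were not. Capitals mark the motif, and each stretch reads 5′ to 3′ on the strand of the gene. Offsets are those of the motif, counted from the RefSeq start, while the coordinates cover the whole stretch shown, flanking bases included. For Hspa5 the GENCODE gene begins farther upstream, at 34771970, so that its stretch lies inside the GENCODE gene. Hspa5 has it 65 to 47 bases upstream of the RefSeq start at chr2:34772020-34772048 (+), Calr 162 to 144 at chr8:84847070-84847098 (−, reversed), Dnajc3 105 to 87 at chr14:118937822-118937850 (+), Creld2 126 to 108 at chr15:88819515-88819543 (+, reversed) and Syvn1 44 to 26 at chr19:6046527-6046555 (+).
Hspa5: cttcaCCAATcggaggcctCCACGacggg
Calr: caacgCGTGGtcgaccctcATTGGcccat
Dnajc3: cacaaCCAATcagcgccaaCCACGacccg
Creld2: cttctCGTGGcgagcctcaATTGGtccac
Syvn1: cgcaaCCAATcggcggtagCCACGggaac

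The other carriers were Canx, Pdia6 and Hsp90b1, the ER form of Hsp90. Hsp90b1 carries the element in both orientations, 212 to 194 bases upstream at chr10:86705633-86705661 and, reversed, 107 to 89 bases upstream at chr10:86705528-86705556 (− strand).
Hsp90b1 forward: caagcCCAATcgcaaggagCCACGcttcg
Hsp90b1 reversed: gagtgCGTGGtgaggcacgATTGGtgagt
Carriers did not move as a block. In WT, 1 of the 8 was called with IL-33, Hspa5, and 3 changes were positive and 5 negative, with a median log2 fold change of −0.10. The other 26 members with a promoter had 2 calls, 19 positive and 7 negative changes, with a median of 0.33. Dnajb11 and Herpud1, which hold the shorter relative of the element, are among these 26. In Sema6d−/− the carriers gave 0 calls by limma, 3 positive and 5 negative changes and a median of −0.10, and the other 26 members 1 call, 16 positive, 10 negative and 0.10. Of all genes, 2.72% were called higher and 1.64% lower in WT, and 1.89% and 1.17% in Sema6d−/−.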

How the data were processed

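RNA-seq of 12 lung ILC2 libraries was used as deposited: FPKM per gene symbol, computed by the authors. The submitters' processing notes name TopHat2 2.1.1, Bowtie2, Cuffdiff 2.2.1 and mm10. The methods also name mm10, but another TopHat version, and Cuffnorm 2.2.1 in place of Cuffdiff. The labels and the methods name different library kits, so whether reads kept their strand is unclear.

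Values were analysed as log2(FPKM + 1) with limma 3.58.1 in R 4.3.3 (eBayes with trend), as 4 group means over 11446 genes that averaged 0.5 FPKM or more, or were listed, with 8 residual degrees of freedom. Contrasts were IL-33 against PBS in each genotype, genotype in each treatment, and the interaction. P-values were adjusted by Benjamini-Hochberg over all genes tested, with a threshold of 0.05. Other steps used Python 3.11.15, numpy 2.4.6, pandas 2.3.3 and matplotlib 3.10.9. The code was tested on simulated data.

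Values in every library are given for members called with IL-33 in either genotype. They are also given for the 2 members with the smallest p where a genotype or interaction contrast called none. Other pathway genes are named, up to 3 per list in each contrast, by the size of their change among those called. Further members given by library or named for non-overlap were chosen after their values were seen. The members and lists were chosen with earlier results of these data known. Marker lists cover ILC2s, B and plasma cells, T cells, NK cells, macrophages, dendritic cells, eosinophils, neutrophils, mast cells and basophils, epithelium, endothelium and mesenchyme. Positions are from GENCODE vM21 (GRCm38) and promoters from RefSeq (GRCm38.p6).

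Alternatives tried were quantile normalization, a pseudocount of 0.1, a level filter raised to 2 FPKM or dropped, median ratio scaling, eBayes without the trend, array weights, a replicate block, only the groups compared, each library left out in turn, and, chosen after seeing the data, 3 PBS libraries left out together. The median ratio factors were 1.0406 to 1.0533 across the libraries, so that alternative could change little.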

Additional observations from a re-analysis of the deposited data

How the results depend on the processing

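Each count of members called was recomputed under 22 alternatives (21 for the interaction). The counts for genotype under PBS and for the interaction were 0 in all of them, and for genotype under IL-33 they were 0 except 1 lower with array weights. For IL-33 in WT, the 1 higher became 0 with eBayes without the trend, with the replicate block and with only the groups compared, 2 with array weights, and 4 without the 3 PBS libraries chosen after seeing the data. That leaves 1 WT PBS library, which limma assumes to vary like the other groups. The 2 lower became 1 without the trend and 1 without those 3 libraries. With only the groups compared the lower count stayed 2, but Hspa5 was lost and Dnajb9 gained. Leaving out 1 library at a time gave 0 to 3 higher and 1 to 3 lower. For IL-33 in Sema6d−/−, the 0 higher became 3 without those 3 libraries and stayed 0 with each library left out. The 2 lower became 1 without the trend, with array weights and with only the groups compared, and were 1 to 2 with a library left out. The cause was not tested.

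With the replicate block, which treats libraries of the same number as related although they share only that number, members called in WT were 0 higher and 2 lower, in Sema6d−/− 0 and 2, and 0 in the other contrasts. Over all genes the replicate block gave 225 higher and 140 lower in WT and 134 and 97 in Sema6d−/−, and 5 higher and 3 lower for genotype under PBS, against 42 and 28. Deviations of same-numbered libraries correlated across genes at −0.0465 to 0.0448.

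The sign of the Hspa5 change in Sema6d−/− (−0.03) turned with quantile normalization (0.048), array weights (0.036) and without the 3 PBS libraries (0.062), and ran from −0.075 to 0.073 with a library left out; the cause was not tested. The mean member level in WT PBS, Sema6d−/− PBS, WT IL-33 and Sema6d−/− IL-33 was 5.76, 5.78, 5.98 and 5.96 with a pseudocount of 0.1, and 6.24, 6.32, 6.35 and 6.30 with a mean of at least 2 FPKM, which leaves out the lowest members.

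Counts over all genes ran, over the alternatives, from 137 to 483 higher and 88 to 279 lower in WT, from 93 to 604 and 60 to 364 in Sema6d−/−, from 0 to 226 and 1 to 222 for genotype under PBS, from 0 to 32 and 0 to 29 for genotype under IL-33, and from 0 to 83 and 0 to 92 for the interaction. The highest were mostly without the 3 PBS libraries. Read counts were not given, so what depth limits could not be computed.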
